A study of Mus musculus with 24 samples.

Results

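The genes described here encode the DNA replication machinery of the mouse: the factors that mark and license origins, the helicase that unwinds the double helix, the polymerases with their clamp and clamp loader, and the enzymes that supply deoxynucleotides. They were taken as the array probes whose symbol in the platform annotation is one of 45 listed genes, and 42 of the 45 had a probe, among 16593 genes with a symbol on the array. Gins1, Gins2 and Rfc3 had none under that symbol. The 42 genes had 65 probes, and 14 genes had more than 1. Each gene was read by 1 detected probe, that with the highest mean over the arrays compared. A probe entered a test when it was detected, at a detection p-value under 0.05, on at least 4 of the arrays compared. In the comparisons within a tissue this kept 35 genes in testis, 35 in spleen and 28 in brain, and 27 genes in all 3 tissues.

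The study measured total RNA on Illumina MouseRef-8 bead arrays in male mice homozygous for a mutation of Smc6 and in controls, on 24 arrays that each held the RNA of 1 animal. The SMC6 protein belongs to the SMC5/6 complex, which acts in DNA repair and in the handling of stalled replication forks. The mice were of the mixed background C57BL/6J-129ola-Fvb. Testis and spleen were taken from the same 8 animals at 12 weeks, 4 mutants and 4 controls. The genotype label calls all 4 of these controls wildtype, while the mouse identifiers mark replicates 1 and 2 as +/+ and replicates 3 and 4 as +/-. Brain was taken from other animals at 19 weeks, 4 mutants and 4 wild-type controls, so that tissue, age and animals cannot be told apart in any comparison with brain. What the mutation changes in Smc6 is not given in the labels, and the transcript read 7.96 to 8.26 in mutant testes and 7.93 to 8.29 in control testes (log2 intensity). The mice are separate animals, and p-values therefore measure the spread between animals.

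DNA replication is prepared when the origin recognition complex, CDC6 and CDT1 load the MCM2-7 helicase onto origins, and it starts when CDC45 and the GINS complex turn that helicase on. Primase and polymerase alpha lay down primers, polymerases epsilon and delta extend them on the PCNA clamp that replication factor C loads, RPA coats the single strands, and FEN1 trims the flaps. Many of these genes are transcribed ahead of S phase under the E2F factors. In the adult mouse, erythroblasts and activated lymphocytes divide in the spleen and premeiotic germ cells divide in the testis, whereas neurons do not divide.

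The stretches around the transcription starts of 4 of these genes are shown because of the E2F sites that S phase genes are known for. They were chosen after the levels were seen. Mcm6, Cdt1 and Tk1 were among the genes highest in spleen relative to brain, and Orc3 was one of the few that were lower there. Each stretch runs from 250 bases before to 50 bases after the start (RefSeq, GRCm38.p6), on the gene's own strand, and capitals mark matches to the E2F words TTTCCCGC, TTTGGCGC, TTTCGCGC and TTTGCCGC, searched on both strands. Mcm6 lies at chr1:128359656-128359955 on the minus strand, Cdt1 at chr8:122567765-122568064 on the plus strand, Tk1 at chr11:117825965-117826264 on the minus strand and Orc3 at chr4:34614893-34615192 on the minus strand.
Mcm6: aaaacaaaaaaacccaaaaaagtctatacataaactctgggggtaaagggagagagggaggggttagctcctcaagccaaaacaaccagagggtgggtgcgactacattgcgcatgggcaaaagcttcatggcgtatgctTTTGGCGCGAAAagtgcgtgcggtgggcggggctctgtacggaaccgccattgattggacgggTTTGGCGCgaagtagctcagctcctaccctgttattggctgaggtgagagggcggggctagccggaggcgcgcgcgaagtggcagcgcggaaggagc
Cdt1: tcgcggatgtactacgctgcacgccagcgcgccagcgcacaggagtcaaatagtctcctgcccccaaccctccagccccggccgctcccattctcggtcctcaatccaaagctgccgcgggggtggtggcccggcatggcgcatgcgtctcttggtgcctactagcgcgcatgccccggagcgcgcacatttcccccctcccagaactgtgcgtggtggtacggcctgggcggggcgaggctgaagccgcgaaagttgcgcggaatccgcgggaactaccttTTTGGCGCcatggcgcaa
Tk1: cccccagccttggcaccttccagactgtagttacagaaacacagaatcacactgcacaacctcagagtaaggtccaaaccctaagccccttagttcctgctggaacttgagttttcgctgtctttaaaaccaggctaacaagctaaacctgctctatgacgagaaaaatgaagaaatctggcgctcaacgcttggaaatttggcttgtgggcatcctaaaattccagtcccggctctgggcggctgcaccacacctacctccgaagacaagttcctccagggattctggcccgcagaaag
Orc3: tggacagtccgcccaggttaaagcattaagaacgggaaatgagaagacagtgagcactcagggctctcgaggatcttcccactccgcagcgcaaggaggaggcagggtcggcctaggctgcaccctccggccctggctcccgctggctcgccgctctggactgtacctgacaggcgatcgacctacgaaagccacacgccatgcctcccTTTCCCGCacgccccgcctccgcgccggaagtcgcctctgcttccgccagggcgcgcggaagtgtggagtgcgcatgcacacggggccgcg

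Mcm6 held 3 such matches, of which 2 overlap on opposite strands, and Cdt1 and Orc3 held 1 each. Tk1 held none, which says only that these letters are not in this window. Mcm2 (4.79 between spleen and brain) and Dut (-1.11) stood at the same ends of that difference. Their stretches held 0 matches and are not shown. RefSeq stretches were matched for 37 of the 45 genes, and 13 of the 37 held an E2F word, whereas 2.60% of 27025 genes with such a stretch did. Besides the 3 genes shown, these were Mcm5, Pold1, Cdc6, Mcm3, Mcm7, Gins3, Mcm8, Orc1, Pola1 and Rfc3. The CCAAT box, searched as CCAAT, was in 25 of the 37 and in 41.1% of all genes. The cell cycle element TTTGAA was in 5 of the 37 and in 20.2% of all genes. Matches are given as a description of the sequence and do not show that a factor binds there.

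The plot of levels by tissue gives each gene tested within a tissue in all 24 arrays. Mcm9, tested only between testis and brain, is not drawn. The arrays were normalized together for these levels, which are log2 intensities and can be compared between tissues for 1 gene but not between genes. In bulk tissue, fewer cells of a type and less RNA per cell cannot be told apart.

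**Figure D1:**
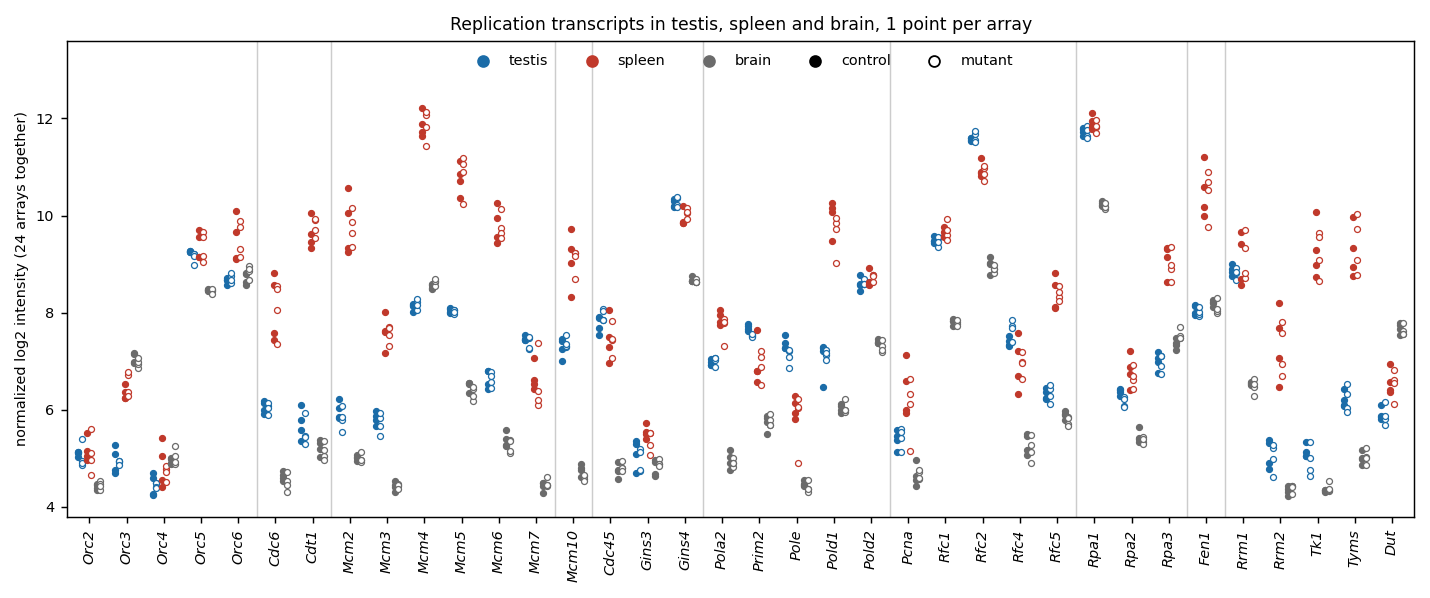
Normalized log2 intensity (vertical axis) on all 24 arrays of each replication gene tested within a tissue. Testis, spleen and brain stand side by side, with controls as filled points and mutants as open points. Grey lines lie between groups of genes with a shared role. For Tk1 the 4 control spleens lay between 8.74 and 10.06 and the 4 control brains between 4.32 and 4.35, and the mutants overlapped the controls in each tissue.

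Spleen carried more of most replication transcripts than brain. Among control animals 36 genes could be tested between spleen and brain, and 33 were higher in spleen and 2 lower at an adjusted p under 0.05 (limma), 35 in all. Of all genes tested 43.7% were higher and 39.1% lower, 82.8% in all. The median difference over the 36 was 2.09 on the log2 scale, against 0.09 over all genes. Testis also carried more than brain of most of them: 29 of 37 were higher and 5 lower, against 38.1% and 48.1% of all genes (86.2% in all). The median difference was 1.03 against -0.21. Orc2, Cdc6, Mcm3, Mcm7, Pole, Pcna, Rrm2 and Tk1 had no probe detected on 4 or more brain arrays. They were tested only through the other tissue, where they could hardly be called lower. Orc4 entered only through brain. For the 24 genes detected on all 16 spleen and brain arrays the median was 1.90, against 0.29 over all genes so detected. For the 23 detected on all testis and brain arrays it was 1.19, against -0.21. Between testis and spleen, 23 of 35 were lower in testis and 6 higher, against 48.9% and 36.5% of all genes (85.4% in all), with a median of -0.92 against -0.26. The split depended on the scaling: without normalization between arrays it was 18 lower and 12 higher (36.7% and 44.2% of all genes), and with arrays scaled to the same median 20 lower and 11 higher (42.3% and 39.9%).

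Without normalization between arrays, the split between testis and brain was 22 higher and 9 lower (29% and 59% of all genes), and that between spleen and brain 26 higher and 3 lower (18.6% and 65.6%). That setting moved the median of all genes to -0.66 between testis and brain, -0.79 between spleen and brain and 0.14 between testis and spleen. Under each of the 4 scalings tried, 18 genes were called lower and 4 higher in testis than in spleen, 22 were called higher and 5 lower in testis than in brain, and 26 were called higher and 2 lower in spleen than in brain. The share of all genes called under each of the 4 scalings was not computed, so these counts have no background to be read against.

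The genes of the origin recognition complex, which binds origins, differed in both directions. Of 5 tested between control spleen and control brain, 3 were higher in spleen (Orc2, Orc5 and Orc6) and Orc3 was lower, with a median of 0.75 over the 5. Of all genes 43.7% were higher and 39.1% lower in that contrast. Orc5 read 9.26, 9.26, 9.25 and 9.28 in the control testes and 9.15, 9.57, 9.15 and 9.71 in the control spleens, which overlap, and 8.45 to 8.48 in the control brains, below both. The difference between testis and spleen was -0.13 (SE 0.12, limma adjusted p = 0.322), but 0.51 without normalization between arrays (limma adjusted p = 9.48e-04). The difference between spleen and brain was 0.93 (SE 0.12, limma adjusted p = 2.55e-07), which turned to -0.27 without normalization between arrays.

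Orc3 ran the other way from most genes. It read 6.99, 7.14, 6.97 and 7.18 in the control brains, 6.25, 6.53, 6.23 and 6.36 in the control spleens and 5.09, 5.27, 4.76 and 4.70 in the control testes, with no overlap between tissues. Testis was below brain by a log2 difference of -2.11 (SE 0.12, limma adjusted p = 1.50e-14), and spleen was below brain by -0.73 (SE 0.12, limma adjusted p = 6.29e-06). It was detected on 2 of the 4 control testis arrays. Orc2 was detected on every control array of testis and spleen and on no brain array, and its level in spleen was at least 1.43-fold that in brain (limma adjusted p = 5.86e-05). Its second detected probe had a difference of 0.22 between spleen and brain (limma adjusted p = 0.24).

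Orc6 read 9.11, 9.65, 9.13 and 10.09 in the control spleens, 8.58 to 8.72 in the control testes and 8.56 to 8.82 in the control brains. Testis was below spleen by a log2 difference of -0.83, a call lost without normalization between arrays (limma adjusted p = 0.282), and spleen was above brain by 0.79 (SE 0.17, limma adjusted p = 1.49e-04), but the difference from brain was -0.40 without normalization between arrays (limma adjusted p = 0.0709) and 0.11 with arrays scaled to the same median (limma adjusted p = 0.577). Testis and brain overlapped for Orc6, with a difference of -0.04 (SE 0.17, limma adjusted p = 0.812). Orc4 was undetected on all control testis arrays and detected on all 4 control brain arrays, where it was at least 1.13-fold higher (limma adjusted p = 0.00508). Orc1, the ATPase subunit that completes the complex, was detected on no array.

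The licensing factors Cdc6 and Cdt1 were high in spleen. Cdt1, which brings the helicase to origins, read 9.45, 9.62, 9.33 and 10.06 in the control spleens, 6.09, 5.59, 5.36 and 5.79 in the control testes and 5.04, 5.19, 5.38 and 5.32 in the control brains. All 4 spleens were more than 3 log2 units above every testis and brain. Testis was 15.0-fold below spleen (log2 difference -3.91, SE 0.16, limma adjusted p = 2.61e-17), and spleen was 20.9-fold above brain (limma adjusted p = 3.30e-18). Testis and brain overlapped at 1 array, and the difference of 0.47 between them turned to -0.07 without normalization between arrays.

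Cdc6, the ATPase that loads the helicase with CDT1, spread widely among the control spleens, at 7.44, 8.57, 7.57 and 8.82. Its levels were 5.92 to 6.17 in the control testes and 4.53 to 4.73 in the control brains, where 2 of 4 arrays detected it. The difference between testis and spleen was -2.04 (SE 0.24, limma adjusted p = 2.08e-08). Gmnn, which encodes the CDT1 inhibitor geminin, was detected on 1 of the 24 arrays, a control spleen, and was tested in no tissue.

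The 6 genes of the MCM2-7 helicase core were all higher in spleen than in brain, with differences of 2.23 to 4.79, as were 43.7% of all genes. Against testis 5 of the 6 were higher in spleen, as were 48.9% of all genes. Mcm4 read 11.64, 11.71, 11.89 and 12.22 in the control spleens, 8.18, 8.02, 8.16 and 8.13 in the control testes and 8.60, 8.56, 8.50 and 8.49 in the control brains. Here the testes were lowest, 13.4-fold below spleen (log2 difference -3.74, SE 0.12, limma adjusted p = 2.02e-19) and 1.33-fold below brain (-0.41, SE 0.12, limma adjusted p = 0.00343). Mcm2 read 9.25, 10.05, 9.34 and 10.58 in the control spleens, 5.84 to 6.21 in the control testes and 4.94 to 5.06 in the control brains. Its spleen level was 27.7-fold that of brain (log2 difference 4.79, SE 0.20, limma adjusted p = 5.55e-17).

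Mcm6 read 9.44, 10.26, 9.55 and 9.94 in the control spleens, 6.79, 6.80, 6.53 and 6.43 in the control testes and 5.25 to 5.59 in the control brains. Its spleen level was 21.4-fold that of brain (limma adjusted p = 6.07e-19), and the other 3 tested probes gave smaller differences of 3.97, 3.07 and 0.67 in the same direction. Mcm5 lay at 10.37 to 11.12 in the control spleens, 8.00 to 8.09 in the control testes and 6.34 to 6.56 in the control brains, 3 ranges that do not meet. Its spleen level was 19.3-fold that of brain (limma adjusted p = 1.20e-18).

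Mcm7 was the exception in the helicase core. It read 7.44, 7.45, 7.45 and 7.55 in the control testes and 6.52, 6.60, 6.42 and 7.07 in the control spleens, all below the testes. The difference of 0.82 (SE 0.18, limma adjusted p = 2.10e-04) missed the threshold with the authors' normalized values (0.72, limma adjusted p = 0.161). Mcm7 and Mcm3 were detected on no brain array, which leaves bounds: Mcm7 was at least 7.05-fold higher in testis than in brain, and Mcm3 at least 7.71-fold higher in spleen than in brain.

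Mcm10, which helps start the helicase, read 8.32, 9.30, 9.03 and 9.73 in the control spleens, 7.00 to 7.45 in the control testes and 4.62 to 4.89 in the control brains. The spleen level was 20.1-fold the brain level (limma adjusted p = 5.96e-17) and the testis level 5.70-fold (limma adjusted p = 3.33e-12). Mcm8 was detected on no array. Mcm9, which acts with MCM8 in recombination repair, was detected on 1 control brain array and on no control testis array, so both levels are at background.

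Of the genes whose products activate the helicase, Gins4 was higher in testis than in spleen, Gins3 was lower and Cdc45 did not pass. Cdc45 read 7.67, 7.91, 7.88 and 7.55 in the control testes and 6.96, 7.50, 7.30 and 8.05 in the control spleens, and the groups overlapped (difference 0.30, SE 0.16, limma adjusted p = 0.0899). Without normalization between arrays this difference was 0.83 (limma adjusted p = 1.64e-04), and with arrays scaled to the same median 0.65 (limma adjusted p = 9.67e-04). Against brain, at 4.58 to 4.92, Cdc45 was 8.03-fold higher in testis (limma adjusted p = 7.57e-15). Gins4 read 10.20, 10.17, 10.33 and 10.30 in the control testes, 9.86, 9.84, 9.84 and 10.21 in the control spleens and 8.64 to 8.76 in the control brains. Testis exceeded spleen by 0.31 (SE 0.09, limma adjusted p = 0.00189), although spleen control 4 lay within the range of the testes. Gins3 was lower in testis than in spleen by a log2 difference of -0.43 (SE 0.14, limma adjusted p = 0.00617), which was 0.01 without normalization between arrays.

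The polymerases split between the tissues. Pole, the catalytic subunit of polymerase epsilon on the leading strand, read 7.28, 7.27, 7.37 and 7.53 in the control testes and 5.80, 6.29, 5.94 and 6.14 in the control spleens, without overlap, and was detected on no brain array. It was 2.50-fold higher in testis than in spleen (log2 difference 1.32, SE 0.18, limma adjusted p = 3.13e-07) and at least 6.53-fold higher in testis than in brain. Pold1, the catalytic subunit of polymerase delta, went the opposite way, at 10.08, 10.15, 9.47 and 10.26 in the control spleens and 7.26, 7.22, 6.48 and 7.29 in the control testes. It was 7.61-fold lower in testis than in spleen (log2 difference -2.93, SE 0.18, limma adjusted p = 1.34e-13).

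Prim2, the large primase subunit, read 7.67, 7.76, 7.73 and 7.63 in the control testes, and 6.80, 6.79, 6.58 and 7.64 in the control spleens. Only spleen control 4 reached the testes, and the difference was 0.75 (SE 0.16, limma adjusted p = 1.63e-04), but a second Prim2 probe gave 0.05 (limma adjusted p = 0.81). Pola2, the regulatory subunit of polymerase alpha, lay at 7.74 to 8.06 in spleen, 6.92 to 7.04 in testis and 4.75 to 5.17 in brain, in control animals. Its spleen level was 7.62-fold the brain level (limma adjusted p = 3.39e-18). Pold2 read 8.45 to 8.78 in the control testes and 8.58 to 8.91 in the control spleens, with a difference of -0.08 (SE 0.09, limma adjusted p = 0.408). Without normalization between arrays the Pold2 difference was 0.51 (limma adjusted p = 0.00286). Pola1 and Prim1 were detected on no array.

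Of the clamp loader genes, Rfc2 and Rfc4 were higher in testis than in spleen and Rfc5 was lower. Rfc2 read 11.60, 11.56, 11.54 and 11.60 in the control testes, 10.88, 10.90, 10.81 and 11.19 in the control spleens and 9.02, 9.01, 8.77 and 9.14 in the control brains. The 3 tissues did not overlap, and testis exceeded spleen 1.55-fold (log2 difference 0.63, SE 0.09, limma adjusted p = 1.27e-06) and brain 6.02-fold (limma adjusted p = 1.29e-18). Rfc4 exceeded spleen by 0.44 in testis (SE 0.19, limma adjusted p = 0.0342), while its second probe gave 0.07 (limma adjusted p = 0.75) and the authors' normalized values 0.40 (limma adjusted p = 0.0964). Rfc5 was 4.21-fold lower in testis than in spleen (log2 difference -2.07, SE 0.13, limma adjusted p = 6.82e-14). Rfc1, the largest subunit, differed by -0.15 between testis and spleen (SE 0.09, limma adjusted p = 0.0979) and was 3.20-fold higher in testis than in brain (limma adjusted p = 1.55e-15). Without normalization between arrays the testis to spleen difference of Rfc1 was 0.50 (limma adjusted p = 0.00101).

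Pcna, the sliding clamp, spread widely in the control spleens, at 5.94, 7.13, 5.99 and 6.60, and read 5.13 to 5.59 in the control testes, below all of them (difference -1.02, SE 0.24, limma adjusted p = 4.02e-04). Rpa1, the large subunit of the single-strand binding protein RPA, read 11.64 to 11.81 in the control testes, 11.77 to 12.12 in the control spleens and 10.21 to 10.30 in the control brains. Testis and spleen overlapped, and their difference of -0.18 (SE 0.08, limma adjusted p = 0.0475) was 0.66 without normalization between arrays and 0.48 with arrays scaled to the same median. Rpa2, the middle subunit, was 1.88-fold higher in testis than in brain (limma adjusted p = 2.33e-07), but a second probe gave 0.05 (limma adjusted p = 0.73), and without normalization between arrays the log2 difference fell from 0.91 to 0.28 (limma adjusted p = 0.0908). Rpa3, its small subunit, was 4.30-fold lower in testis than in spleen (limma adjusted p = 1.02e-12) and 1.28-fold lower in testis than in brain (limma adjusted p = 0.0272). The flap nuclease Fen1 read 9.98, 10.59, 10.18 and 11.20 in the control spleens, whereas the control testes at 7.95 to 8.16 and the control brains at 8.13 to 8.26 overlapped. Testis was 5.38-fold below spleen for Fen1 (limma adjusted p = 2.83e-11).

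Tk1, the thymidine kinase of dividing cells, had the largest difference of the 35 genes between control testis and control spleen. It read 8.74, 9.30, 8.98 and 10.06 in the control spleens and 5.06, 5.34, 5.13 and 5.05 in the control testes, and was detected on no brain array. Testis was 17.5-fold below spleen (log2 difference -4.13, SE 0.21, limma adjusted p = 2.29e-15), and spleen was at least 24.6-fold above brain. A second Tk1 probe gave a smaller difference of -1.44 between testis and spleen.

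Tyms, which makes thymidylate, and Rrm2, the small subunit of ribonucleotide reductase, were also high in spleen, with testis below it by log2 differences of -3.06 (SE 0.23, limma adjusted p = 3.63e-12) and -2.26 (SE 0.26, limma adjusted p = 1.71e-08). A second Tyms probe gave 0.25 between testis and spleen (limma adjusted p = 0.14) and 0.04 between spleen and brain (limma adjusted p = 0.80). Rrm1, the large subunit, did not pass between testis and spleen (-0.21, SE 0.19, limma adjusted p = 0.313), and testis was 5.01-fold above brain (limma adjusted p = 4.44e-11).

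Dut, the dUTPase that keeps uracil out of DNA, was highest in brain, at 7.66, 7.75, 7.54 and 7.79 in controls against 6.36, 6.57, 6.40 and 6.95 in spleen and 5.86, 5.82, 6.10 and 5.88 in testis. No ranges met. Brain exceeded testis 3.41-fold (limma adjusted p = 8.04e-12) and spleen 2.16-fold (limma adjusted p = 5.97e-08).

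The same contrasts were computed in the mutants, which are other animals than the controls. Between testis and spleen, 28 of the 35 genes were called in the same direction in controls and in mutants, and all 35 had the same sign. Between testis and brain this held for 33 of 37 called and all 37 in sign, and between spleen and brain for 35 of 36 called and all 36 in sign. The same agreement was not computed over all genes, most of which were called in each contrast. It is therefore not shown to be particular to replication genes. In mutants 7 genes were called higher and 23 lower in testis than in spleen (36.5% and 49.1% of all genes, 85.6% in all), 28 higher and 5 lower in testis than in brain (38.5% and 47.9%, 86.4% in all), and 33 higher and 2 lower in spleen than in brain (43.5% and 39.5%, 83% in all). Pold1 had the largest gap between controls and mutants in the testis to spleen difference, of 0.43.

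**Figure D2:**
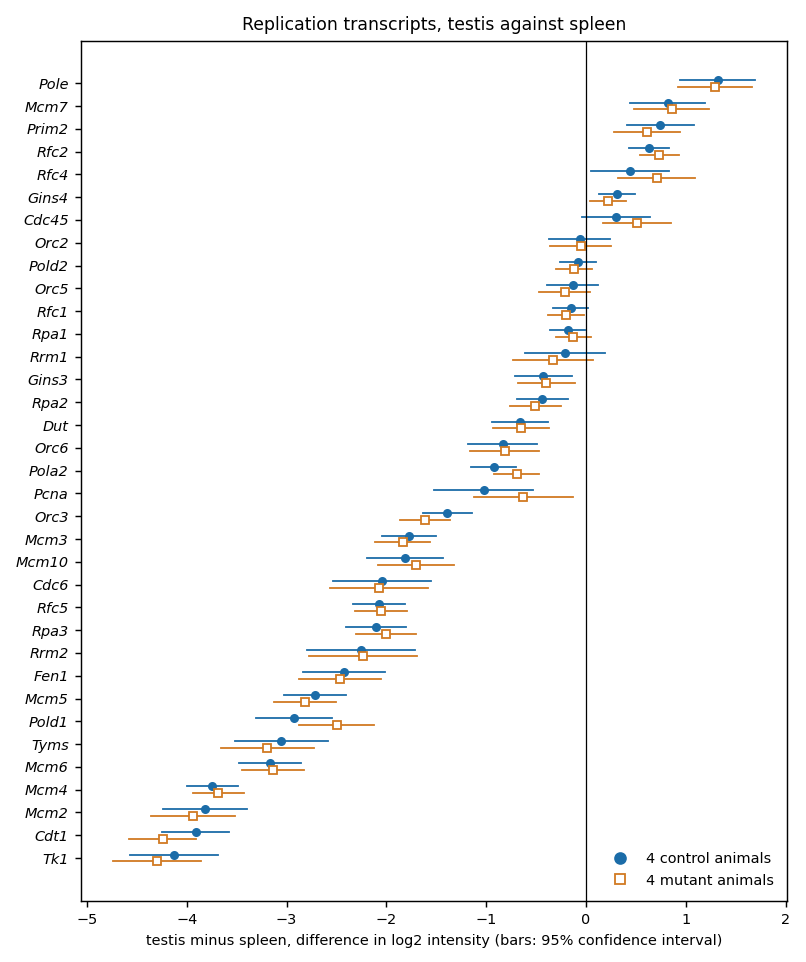
Difference in log2 intensity between testis and spleen (horizontal axis, bars are 95% confidence intervals) for the 35 genes tested, in 4 control animals (filled circles) and 4 mutant animals (open squares). Values run from -4.13 for Tk1 to 1.32 for Pole in controls, and the mutants kept the sign for all 35.

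Other replication genes, not among the 45, were measured for comparison. Of 28 tested, 26 were higher and 2 lower in control spleen than in control brain (median 1.96), with Uhrf1, which brings DNA methylation to the fork, at 6.17 (SE 0.16, limma adjusted p = 2.28e-21). Of all genes 43.7% were higher and 39.1% lower in spleen than in brain. Between testis and spleen 6 of the 28 were higher and 16 lower (median -0.87), against 36.5% and 48.9% of all genes. The histone chaperone Nasp was higher in testis by 3.12 (SE 0.12, limma adjusted p = 5.76e-18), and the polymerase delta subunit Pold4 was lower, with a log2 difference of -3.81 (SE 0.16, limma adjusted p = 5.95e-17).

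Genes of mitosis were set beside them. All 17 tested were higher in control spleen than in control brain (median 3.95), as were 43.7% of all genes. Between testis and spleen 8 were higher and 5 lower (median -0.09), against 36.5% and 48.9% of all genes. Foxm1, a transcription factor of the G2 phase, was higher in testis than in spleen by 2.56 (SE 0.16, limma adjusted p = 1.94e-13), and Cenpa, the centromeric histone, was lower, with a log2 difference of -3.78 (SE 0.12, limma adjusted p = 7.27e-20). Of 11 genes of the E2F family and its pocket proteins, 9 were lower and 2 higher in testis than in spleen (median -1.13). The shares of all genes were 48.9% and 36.5%. E2f2 had the largest difference among them, at -5.70 (SE 0.24, limma adjusted p = 3.27e-17), while the pocket protein gene Rbl2 was higher in testis by 3.41 (SE 0.14, limma adjusted p = 3.52e-17).

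The tissues carried the markers of their label. Of 19 spermatid markers 16 were detected in testis, with a median of 12.01 to 12.20, 11 of 14 B cell and 12 of 16 T cell markers were detected in spleen, and 12 of 15 neuron markers in brain. The number of probes detected on an array ranged from 12049 to 14234 of 25697. Markers of the exocrine pancreas stood apart in spleen mutants 1 and 2, with medians of 10.48 and 9.54 against 4.55 to 5.36 in the other 6 spleens, and reached 7.76 in testis mutant 1 against 4.58 to 5.64 in the other testes. The upper quartile of raw intensity was 144.9 to 161.8 on the mutant brain arrays and 169.3 to 188.8 on the control brain arrays.

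Smc6 mutants did not differ from controls in any replication gene past the threshold. In each tissue 0 of the genes tested passed an adjusted p of 0.05 (limma), as did 0% of all genes read by 1 probe each. The median differences were -0.03 over 35 genes in testis, -0.03 over 35 in spleen and -0.05 over 28 in brain, where all genes had 0.00, -0.01 and -0.01. Against the 2 wild-type controls alone 0 of 35 genes passed in testis and 0 of 35 in spleen, as did 0% of all genes, with medians of -0.06 and 0.10. Leaving out 1 spleen moved the spleen median between -0.12 (without control 1) and 0.13 (without control 4). Unadjusted p values fell under 0.05 for 4 of 35 in testis, 0 of 35 in spleen and 1 of 28 in brain, against 4.29%, 1.63% and 9.92% of all genes. The 95% confidence intervals lay within 1.5-fold in either direction for all 35 genes in testis, all 28 in brain and 24 of 35 in spleen, and within 2-fold for all 35 in spleen. Levels in these comparisons are normalized within each tissue.

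In testis, 4 genes had mutants and controls that did not overlap, Pole, Rpa2, Prim2 and Orc5, all with the mutants lower, where 2.65% of all genes did not overlap. Pole read 7.19, 7.18, 7.28 and 7.46 in controls and 6.99, 6.76, 7.12 and 7.15 in mutants, a mean difference of -0.27 (SE 0.11, limma adjusted p = 1.00). Rpa2 read 6.25, 6.31, 6.29 and 6.17 in controls and 5.96, 6.15, 6.12 and 5.96 in mutants, a mean difference of -0.21 (SE 0.09, limma adjusted p = 1.00). For both, all 4 mutants lay below all 4 controls.

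Prim2 read 7.61, 7.70, 7.66 and 7.56 in control testes and 7.48, 7.45, 7.42 and 7.48 in mutant testes, a mean difference of -0.17 (SE 0.08, limma adjusted p = 1.00), and its second probe gave -0.13. In the other direction, Rfc4 read 7.24, 7.44, 7.23 and 7.33 in controls and 7.66, 7.61, 7.78 and 7.30 in mutants. Of these, 3 mutants lay above all controls and 1 within their range (0.28, SE 0.11, limma adjusted p = 1.00). A second Rfc4 probe gave 0.11 (SE 0.17). Cdc45 differed by 0.21 (SE 0.11, limma adjusted p = 1.00).

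In spleen the groups overlapped for every gene, where 1.39% of all genes did not overlap. Pold1 had the most negative difference, with controls at 9.42, 9.49, 8.84 and 9.59 and mutants at 8.41, 9.07, 9.20 and 9.30, a mean difference of -0.34 (SE 0.22, limma adjusted p = 1.00). Pola2 differed by -0.20 (SE 0.15, limma adjusted p = 1.00), Orc3 by 0.18 (SE 0.14, limma adjusted p = 1.00) and Cdt1 by 0.15 (SE 0.17, limma adjusted p = 1.00). Without the 2 mutant spleens that carried pancreas transcripts, a choice made after seeing the data, 0 of 35 genes passed and the median difference was 0.08 in place of -0.03. Without those arrays 5 genes were called higher and 24 lower in mutant testis than in mutant spleen (35.8% and 48.5% of all genes), and 33 higher and 2 lower in mutant spleen than in mutant brain (42.4% and 38.6%).

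In brain the groups also overlapped for every gene, where 5.94% of all genes did not overlap. Mcm10 read 5.15, 5.02, 4.78 and 4.97 in controls and 4.79, 4.69, 4.83 and 4.64 in mutants, a mean difference of -0.24 (SE 0.09, limma adjusted p = 0.322), and it was detected on 3 of 4 control and 2 of 4 mutant arrays. Rpa3 read 7.97, 7.83, 7.87 and 7.73 in controls and 8.18, 7.96, 8.01 and 7.97 in mutants, so that the means differed by 0.18 (SE 0.08, limma adjusted p = 0.425). Without normalization between arrays, 5 of 28 genes passed, all lower in mutants, where 18.4% of all genes were called lower and their median moved to -0.20, so that the replication genes were called at a share near that of all genes. With the array's upper quartile as a covariate 0 passed.

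**Figure D3:**
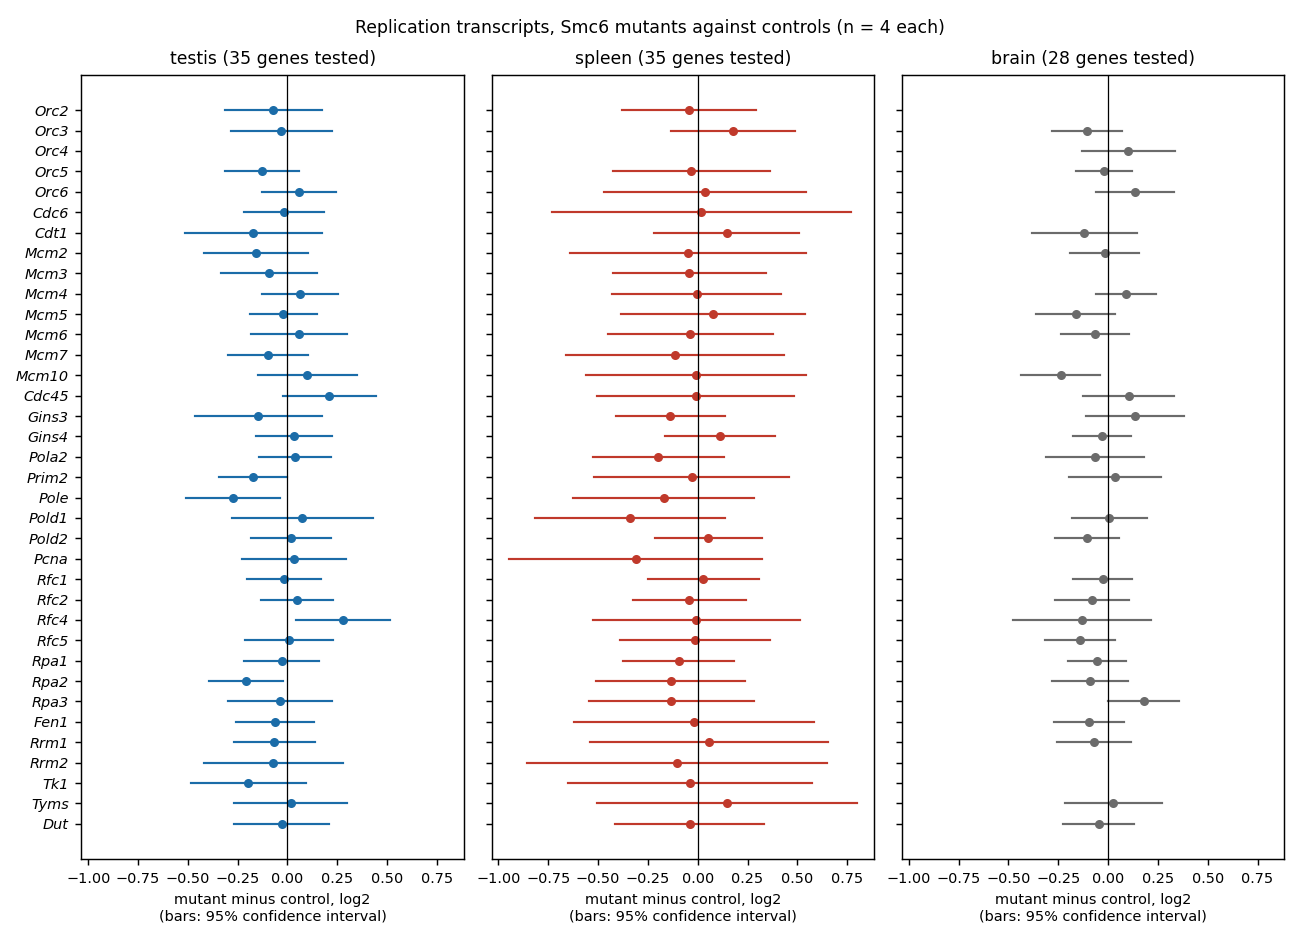
Difference in log2 intensity between Smc6 mutants and controls (horizontal axis, bars are 95% confidence intervals, n = 4 animals each) for the genes tested in testis, spleen and brain. Points lie between -0.34 (Pold1 in spleen) and 0.28 (Rfc4 in testis), and the intervals are widest in spleen.

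No replication gene passed a test of whether the mutant difference varied between tissues. For testis against spleen 0 of 35 passed, for testis against brain 0 of 37 and for spleen against brain 0 of 36, against 0.00927%, 0.00875% and 0% of all genes, and 0 had an unadjusted p under 0.05 in each, against 5.14%, 3.35% and 4.68%. The smallest p values belonged to Pold1 between testis and spleen (0.43, SE 0.26, limma adjusted p = 0.981) and Orc3 between spleen and brain (0.30, SE 0.17, limma adjusted p = 0.999).

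Other replication genes, mitotic genes and E2F genes had no member past the threshold between mutants and controls in any tissue (limma). Unadjusted, p was under 0.05 for Top2b in spleen, 1 of 27 other replication genes, where 1.63% of all genes had such a p. In brain it was so for Pole3, 1 of 23 other replication genes, and for E2f2, 1 of 10 E2F genes, against 9.92% of all genes.

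Heterozygous and wild-type controls, 2 animals each, were compared in testis and spleen. No replication gene of the 35 passed in either tissue, against 0.0216% and 0% of all genes, and 3 in testis and 0 in spleen had an unadjusted p under 0.05, against 5.2% and 2.09%. Orc3 in testis read 5.03 and 5.21 in wild-type and 4.73 and 4.67 in heterozygous animals (-0.42, SE 0.12, limma adjusted p = 0.822), and Rrm2 read 4.87 and 4.74 against 5.25 and 5.31 (0.48, SE 0.19, limma adjusted p = 0.822). In spleen 28 of 35 genes were above 0, against 48.6% of all genes, with a median of 0.18 against -0.01 over all genes. That median rested on single animals: it was -0.09 without control 4 and 0.48 without control 3. Markers of red cell precursors moved with it, 14 of 16 above 0 with a median of 0.56, as did 16 of 17 mitotic genes with a median of 0.41, and their part in the shift was not tested.

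Replication transcripts varied more from animal to animal in spleen than in the other tissues. The median standard deviation within a group was 0.316 for the 35 genes in spleen, against 0.214 for all genes, while in testis it was 0.155 against 0.148 and in brain 0.112 against 0.128. Rrm2 varied most in spleen, at 5.87, 7.04, 6.45 and 7.58 in controls and 7.18, 6.09, 6.94 and 6.32 in mutants. Control 4 was high and control 1 low for this gene, with the mutants between them.

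Erythroid markers, genes of red cell precursors, varied along with them. Of 24 such markers 16 were detected in spleen, and their median level was 7.51, 8.60, 7.75 and 9.62 in controls 1 to 4 and 8.95, 7.38, 9.36 and 8.55 in mutants 1 to 4. With genotype in the model, each gene's level was fitted on that median, an analysis added after seeing the data. Of 35 replication genes 12 had a slope above 0 at an adjusted p under 0.05 (limma) and 0 a slope below 0, where 3.31% of all genes rose with it. The slope was above 0 for 34 of 35 replication genes and for 43.2% of all genes, with medians of 0.26 and -0.02 (log2 units per log2 unit). The slope was shared with related genes. Of 17 mitotic genes 12 were called above 0, with a median slope of 0.53, and of 27 other replication genes 12, with a median of 0.32. Prc1, which bundles microtubules of the central spindle, had a slope of 0.76 (SE 0.08, limma adjusted p = 2.88e-04), with a smaller p than any of the 35.

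Fen1 had the smallest p, with a slope of 0.55 (SE 0.07, limma adjusted p = 9.90e-04) and levels of 9.33, 9.91, 9.51 and 10.50 in controls 1 to 4 and 10.01, 9.12, 10.20 and 9.85 in mutants 1 to 4. The 8 spleens stood in the same order by Fen1 as by the erythroid markers. Cdc6 had a slope of 0.67 (SE 0.09, limma adjusted p = 0.00161), Tk1 of 0.54 (SE 0.08, limma adjusted p = 0.00231) and Rrm2 of 0.64 (SE 0.11, limma adjusted p = 0.00702). Rpa1 (0.05), Rpa3 (0.05), Pold2 (0.06) and Orc2 (-0.02) had slopes near 0.

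The calls rested on the extreme animals. Without the 2 spleens farthest from the median erythroid level, control 1 and mutant 2, 0 of 8845 genes were called, replication genes included. In that fit 34 of the 35 slopes were above 0, against 46.5% of all genes, with medians of 0.26 and -0.01. There 12 of the 35 had an unadjusted p under 0.05, a share that was not computed over all genes. Leaving out 1 spleen gave 2 called without control 4, 5 without mutant 2, 6 without control 1 and 7 without mutant 3, where 111, 121, 187 and 181 of 8845 genes rose. Without any of the others 10 to 13 were called, against 2.61% to 3.91% of all genes, and the medians over all 8 fits lay between 0.26 and 0.30. Without the 2 spleens that carried pancreas transcripts 9 of the 35 were called, against 2.3% of all genes. Granulocyte markers, of which 13 of 15 were detected, also varied, from 7.94 in mutant 2 to 9.79 in control 4, and B cell markers, 11 of 14, from 8.00 in mutant 1 to 9.08 in control 1. The part of each cell type in these slopes was not tested. With the erythroid level as a covariate 0 of 35 genes passed between mutants and controls, with a median of -0.09.

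**Figure D4:**
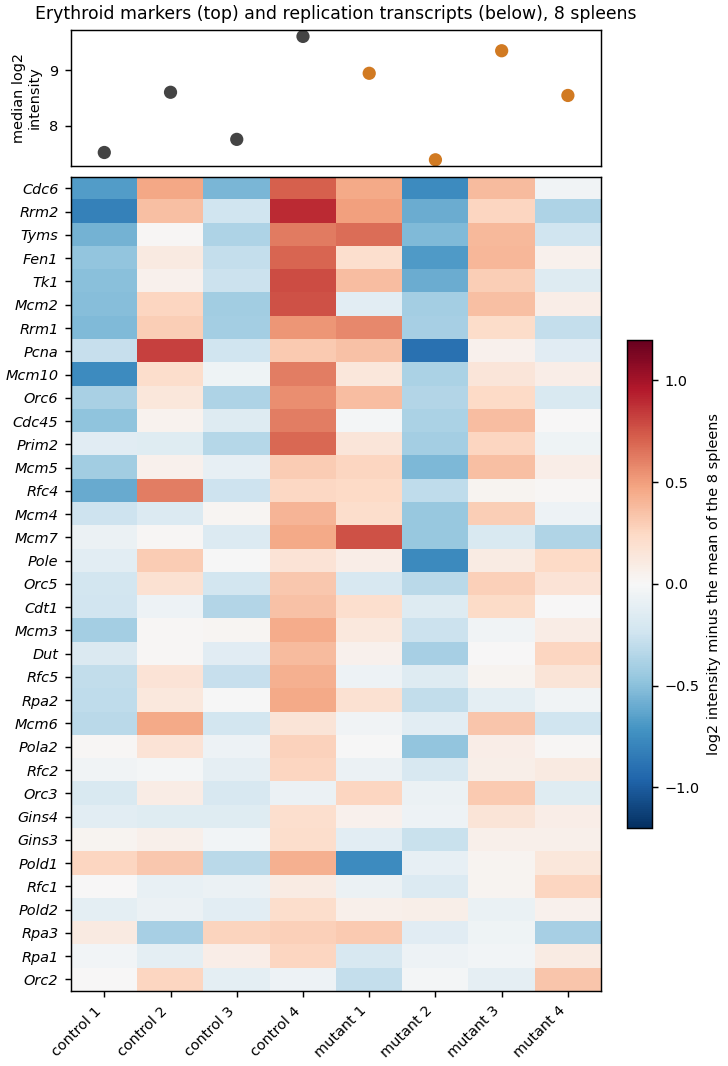
Upper panel, median log2 intensity of 16 erythroid markers in each of 8 spleens (controls dark, mutants orange). Lower panel, log2 intensity of 35 replication genes minus their mean over the 8 spleens, ordered by their slope on the erythroid median, in which control 4 (erythroid median 9.62) is high and control 1 (7.51) and mutant 2 (7.38) are low for most genes in the upper rows.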

How the data were processed

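Members and gene lists were chosen with earlier results of these data known. The intensity values were deposited by the authors in 1 table for all 24 arrays, with a detection p-value per probe and array and the background already subtracted, per the file headers. GenomeStudio 2011.1 is named in the submitters' processing notes. A second table of normalized intensity values that the authors deposited served as an alternative, since its method is not given in the sources used here. No slide or scan date was given.

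Intensities were corrected and quantile normalized with neqc (offset 16) of limma 3.58.1 in R 4.3.3, within each tissue for mutants against controls and over 24 arrays together for tissue contrasts. The correction compresses dim probes, so their fold changes are understated. Tests were lmFit and eBayes of limma with Benjamini-Hochberg adjustment over all probes detected on at least 4 of the arrays compared. Tissue contrasts and their differences used all 6 groups with the animal as a random block (estimated correlation 0.009). A bound ("at least") was used where a group was undetected on every array: the bright group's mean was set against, per array, the lowest detected signal or the dim probe's own, if higher. Named genes were the 4 with the smallest p per direction and the 2 with the largest p in each control tissue contrast, 3 per direction in each mutant contrast, 2 in each interaction and heterozygote contrast and the brightest of each role; others were chosen after their values were seen. Correlations of deviations between same-numbered controls and mutants ran from -0.38 to 0.28. Testis replicate 1 (0.03) and brain replicates 2 (0.13) and 4 (0.28) matched their own number best, and the others did not. Numbers were not taken to pair controls with mutants. Of the sample columns 0 were left unused. Array numbers limit the precision. The method was tested on simulated data. Smc6 apart, genes outside the lists were not analysed here.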

Additional observations from a re-analysis of the deposited data

Results flagged for a closer look

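In 6 of 87 sets of 4 arrays examined, 1 array lay far from the other 3. Chance gives about 1 such set in 20. The first 3 are on the scale of arrays normalized within a tissue, which was used to set mutants against controls. Spleen control 4 read 9.54 for Gins4, with the other control spleens at 9.20 to 9.22. Spleen mutant 2 read 6.70 for Pola2, with the other mutant spleens at 7.16 to 7.25, and this was 1 of the 2 spleens with pancreas transcripts. Brain control 3 read 6.83 for Mcm5, below 7.02 to 7.06 in the other control brains. The other 3 are on the scale of all 24 arrays normalized together, which was used between tissues, so that values for 1 gene differ between the scales. Brain control 4 read 8.76 for Gins4, above 8.64 to 8.66. Testis control 4 read 7.55 for Mcm7, above 7.44 to 7.45. Testis control 3 read 6.48 for Pold1, below 7.22 to 7.29, and the testis to spleen difference of Pold1 was called in the mutants too.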

How the results depend on the processing

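The counts of replication genes past the threshold held within 1.5 times under every alternative run but 3. Without normalization between arrays, 5 of 28 genes were called lower in mutant brains in place of 0, as were 18.4% of all genes. When detection on all 16 arrays was required, 21 of 23 genes were called between testis and brain, in controls and in mutants, since fewer genes were tested. With a replicate block by the shared numbers, 0 of 35, 0 of 35 and 0 of 28 genes were called between mutants and controls in testis, spleen and brain. Blocking testis and spleen by their shared animals in a fit of the 2 groups alone gave 28 called in controls and 28 in mutants. The block changed no count by over 1.5 times. Leaving out 1 array at a time gave 0 called in each mutant contrast, 27 to 29 and 28 to 31 for testis against spleen in controls and mutants, 32 to 34 and 31 to 33 for testis against brain, and 35 to 35 for spleen against brain. In the tissue contrasts as reported, 82.8% to 86.4% of all genes were called. These counts therefore describe how stable the calls were and not a trait of replication genes.

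Of the named differences, 748 values kept their direction and side of the threshold, 2 lost the call, 5 gained it and 16 turned. Without normalization between arrays Rpa3 was -0.030, Orc6 -0.10 and Mcm4 -0.13 between mutant and control brains, Pold2 0.51 and Orc2 0.24 between testis and spleen, and Orc6 -0.40 between spleen and brain. With arrays scaled to the same median Orc6 was -0.011 and Mcm4 -0.043 in the brain comparison, Pold2 0.33 and Orc2 0.064 between testis and spleen, and Mcm9 0.067 between testis and brain. Leaving out 1 control array gave Pold2 -0.14 to 0.00014 (above 0 without spleen 4), Orc2 -0.14 to 0.051 (above 0 without spleen 2), Mcm9 -0.092 to 0.013 (above 0 without brain 1) and Orc4 between spleen and brain -0.28 to 0.060 (above 0 without spleen 3, and 0.011 without spleen 4). The cause was not tested. Of these turned differences, picked by the naming rule, only that of Orc6 between spleen and brain was called in the analysis reported. Counted over all the replication genes tested, 3 called differences turned under another scaling in each control tissue contrast. They were Gins3, Rpa1 and Rpa2 between testis and spleen, Cdt1, Gins3 and Rfc5 between testis and brain, and Gins3, Orc5 and Orc6 between spleen and brain. The share of all genes that turned was not computed. Genes undetected in a group have only bounds.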
